A study of Mus musculus with 2 samples.

Results

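The 5 lysyl oxidases of the mouse (Lox, Loxl1, Loxl2, Loxl3 and Loxl4) and 5 genes of the elastic fibre (Eln, Fbn1, Mfap4, Mfap5 and Fbln5) were examined in heart RNA. These 10 genes were taken by gene symbol out of 22882 symbols, and each stood on 1 row. The list was drawn up with earlier results of these data known, so the counts below are a description and not independent evidence. The control heart was Med1fl/fl, in which both Med1 alleles carry loxP sites and no Cre is named. The csMed1-/- heart came from Med1fl/fl mice that also carried a Cre transgene under the α-myosin heavy chain promoter, which removes floxed Med1 exons in cardiomyocytes from late gestation on and leaves the gene intact in other heart cells. Presence of the transgene and loss of Med1 cannot be told apart between these groups. Mice of both groups were of the C57BL6/J background, of mixed sex, untreated and 23 days old. RNA of 5 hearts was pooled for each genotype and sequenced as 1 library per genotype, so no value below has a replicate, an SD or a test.

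Elastic fibres let vessels, valves and the heart wall recoil. Cells first lay down microfibrils of fibrillin, onto which tropoelastin, the soluble product of Eln, is deposited with the help of fibulins and microfibril-associated proteins. Lysyl oxidases, copper enzymes secreted mainly by fibroblasts and smooth muscle cells, then oxidise lysine side chains, and the products cross-link both elastin and fibrillar collagen. In heart, matrix of this kind is made chiefly by cells other than cardiomyocytes.

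The 5 lysyl oxidases share a catalytic domain, and the coding stretch around its copper-binding histidines is shown because the genes are alike there and short reads could be misassigned. It is read 5′ to 3′ on the coding strand from GENCODE M21 transcripts (GRCm38, the same assembly as mm10), and capitals mark the codons of the 3 histidines.
Loxl1: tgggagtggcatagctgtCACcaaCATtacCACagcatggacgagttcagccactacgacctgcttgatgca
Loxl2: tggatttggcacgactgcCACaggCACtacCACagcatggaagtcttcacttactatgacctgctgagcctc
Loxl3: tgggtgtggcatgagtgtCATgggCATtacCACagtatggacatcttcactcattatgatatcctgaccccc
Loxl4: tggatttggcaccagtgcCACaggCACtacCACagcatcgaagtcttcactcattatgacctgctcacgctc

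In Loxl1 the stretch lies on the minus strand in exon 3 (chr9:58294359-58294381) and exon 4 (chr9:58293681-58293729). That of Loxl2 lies on the plus strand in exon 10 (chr14:69682316-69682338) and exon 11 (chr14:69689028-69689076). The Loxl3 stretch is in exon 10 (chr6:83049995-83050017) and exon 11 (chr6:83050116-83050164) of the plus strand. For Loxl4 it is in exon 11 (chr19:42599877-42599899) and exon 12 (chr19:42598768-42598816) of the minus strand. In all 5 genes an intron splits the 72 bases after base 23. Lox, whose sequence is not printed, matched Loxl1 at 68 of the 72 bases (94.4%), with an identical run of 32 bases at most. Loxl2 and Loxl4 matched at 64 bases (88.9%), with a run of 23 bases. The other 8 pairs matched at 62.5% to 75% of the bases. Lox and Loxl1 thus form one closely matched pair here and Loxl2 and Loxl4 another, with every identical run shorter than the 50-base reads. Only exact matches were counted here and below, so misassignment of reads aligned with mismatches was not tested.

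Over 1 reference transcript per gene, no 50-base stretch of any of the 10 genes occurred in a transcript of another of them. Loxl2 was the one gene with a near-identical copy elsewhere. Of its 2993 stretches of 50 bases, 2133 (71.3%) also occur in Gm21451, annotated as an unprocessed pseudogene on the plus strand of chromosome 14 (chr14:69390854-69480287) and not analysed here. How reads that match both places were counted is not given in the sources used here, so the level of Loxl2 is uncertain. Genes on the opposite strand cover part of the transcript of 5 members. Of the stretches of Loxl2, 219 (7.32%) occur on the opposite strand of other genes, 206 of them in Gm27177, an antisense gene. Htra2 covers 9.90% of the stretches of Loxl3, Gm9913 covers 3.07% of those of Fbn1, Gm30003 covers 2.76% of those of Eln and Mapk7 covers 2.39% of those of Mfap4. An antisense gene, AC161119.1, also overlaps Lox but shares none of the stretches of the transcript used. The libraries were directional, but whether the counting used strand is not stated. Htra2 itself had 29.1 FPKM in Med1fl/fl against 42.4 in csMed1-/- heart (log2 ratio 0.55), and Mapk7 had 5.88 and 9.82 FPKM (0.74).

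Levels are given in FPKM, fragment counts scaled to the library and to the length of the transcript, so that genes can be compared. Ratios divide the csMed1-/- value by the Med1fl/fl value, with nothing added to either. Med1, the targeted gene, had 3.38 FPKM in the control and 0.412 FPKM in the csMed1-/- library (ratio 0.122). Exons outside the floxed part and Med1 of other heart cells count in that value. All genes together gave 780366 FPKM for Med1fl/fl against 716365 for csMed1-/-. The median log2 ratio over the 10489 genes detected in both libraries and reaching 1 FPKM in one of them or both was -0.07, with quartiles of -0.72 and 0.55.

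All 10 genes had higher FPKM in the csMed1-/- library, none by less than 2.07-fold. Of the 10489 genes, 13.6% were higher past 2-fold. Lox passed the filter through the csMed1-/- library alone and so had to differ, and Loxl4 was under 1 FPKM in both libraries. The 8 others were at 1 FPKM or more in both libraries, and all 8 were higher past 2-fold, against 11.3% of the 9160 genes that met that stricter filter. Past 4-fold the count was 5 of these 8 (Eln, Mfap4, Loxl3, Mfap5 and Fbln5), against 2.47% of the 9160 genes. Their median log2 ratio was 2.29, beside -0.05 for the 9160 genes. With 1 pool per genotype, the variation between hearts behind these ratios cannot be estimated. In bulk RNA, more cells of a type and more RNA per cell cannot be told apart.

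**Figure D1:**
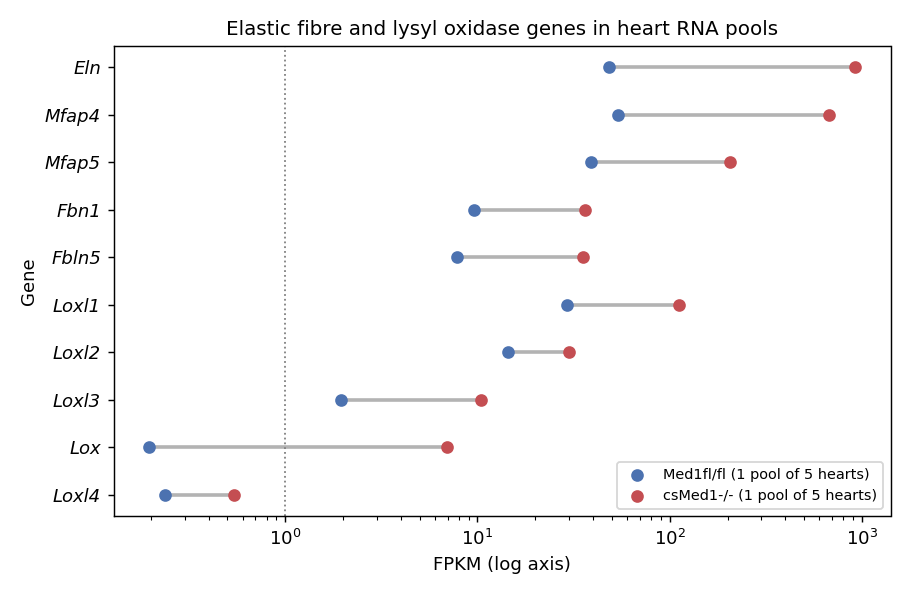
FPKM (log axis) of the 10 genes in the Med1fl/fl pool (blue) and the csMed1-/- pool (red), 1 library each, with a grey line joining the values of a gene and a dotted line at 1 FPKM. Every red point lies to the right of its blue point, and the longest lines are those of Lox, from 0.195 to 6.96 FPKM, and Eln, from 48.4 to 923 FPKM.

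Eln, which encodes tropoelastin, lies on the minus strand of chromosome 5 (chr5:134702593-134747323) and has 37 exons. It had 48.4 FPKM in Med1fl/fl against 923 in csMed1-/- heart (ratio 19.1, log2 ratio 4.25). In the csMed1-/- library it ranked 146th of all symbols by FPKM, and in the control 1759th. Only 59 of the 10489 genes (0.562%) had a higher log2 ratio. Eln was the second most abundant of the 10 genes in control and the most abundant in csMed1-/- heart.

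Microfibrils are built from fibrillin. Fbn1, the gene of fibrillin-1 (chr2:125300594-125507993, minus strand), had 9.63 FPKM in Med1fl/fl against 36.1 in csMed1-/- heart (ratio 3.74, log2 ratio 1.90). Mfap4, which encodes a microfibril-associated glycoprotein that binds elastin and fibrillin (chr11:61485431-61488900, plus strand), had 53.9 and 671 FPKM (ratio 12.4, log2 ratio 3.64). Mfap4 was the most abundant of the 10 genes in control heart and came after Eln in csMed1-/- heart. Mfap5, also called MAGP-2 and likewise a binder of fibrillin (chr6:122505845-122529290, plus strand), had 38.8 and 205 FPKM (ratio 5.29, log2 ratio 2.40). The microfibril-associated genes were thus at several times the level of fibrillin-1 in both libraries, Mfap4 at 5.60 times in control and 18.6 times in csMed1-/- heart, and Mfap5 at 4.03 and 5.69 times.

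Fbln5 encodes fibulin-5, which brings tropoelastin and lysyl oxidases to the microfibril. The gene (chr12:101746565-101819055, minus strand) had 7.81 FPKM in Med1fl/fl against 35.3 in csMed1-/- heart (ratio 4.52, log2 ratio 2.18). Its level relative to Eln was 0.161 in control and 0.0382 in csMed1-/- heart, because the ratio of Eln between the libraries was the larger. The proportion of Eln to Fbn1 was 5.02 in control and 25.6 in csMed1-/- heart. None of these proportions has an error, since each rests on 1 library.

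Lox, the founding lysyl oxidase, cross-links collagen and elastin (chr18:52516067-52529867, minus strand). It had 0.195 FPKM in Med1fl/fl against 6.96 in csMed1-/- heart (ratio 35.6, log2 ratio 5.15). This was the largest ratio of the 10 genes with nothing added, and 21 of the 10489 genes (0.200%) had a higher one. That rank carries no weight, because Lox passed the filter through the csMed1-/- library alone. The ratio of Lox rests on a low control value. With 1 FPKM added to both values its log2 ratio was 2.74, below those of Eln (4.23) and Mfap4 (3.61). The genes nearest to Lox in log2 FPKM over both libraries were Nlrc3 (distance 0.23), Tmem151a (0.43) and Klrg2 (0.48), a likeness over 2 libraries only.

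Loxl1 encodes the enzyme closest to Lox, known for its part in elastic fibre upkeep. The gene (chr9:58287738-58313186, minus strand) had 29.3 FPKM in Med1fl/fl against 111 in csMed1-/- heart (ratio 3.80, log2 ratio 1.93). Loxl1 was the most abundant lysyl oxidase in both libraries. Loxl3 (chr6:83034173-83052562, plus strand), a lysyl oxidase that acts on collagen and on fibronectin matrix, had 1.94 and 10.4 FPKM (ratio 5.38, log2 ratio 2.43).

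Loxl2, a lysyl oxidase that cross-links collagen including that of basement membranes (chr14:69609068-69695834, plus strand), had 14.4 and 29.9 FPKM (ratio 2.07, log2 ratio 1.05). With 1 FPKM added to both values its log2 ratio was 0.999, just inside 2-fold, and its reads may be shared with Gm21451 as described above. Loxl4 (chr19:42593982-42612813, minus strand), the least abundant of the family in csMed1-/- heart, had 0.238 and 0.543 FPKM (ratio 2.29, log2 ratio 1.19). That ratio did not stay past 2-fold with 0.1 FPKM added (log2 ratio 0.93) or 1 FPKM added (0.32). Loxl2 and Loxl4 had the smallest ratios of the 10 genes.

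The number of reads behind these values is not recorded in FPKM, but low values give a rough guide. Where whole reads are counted, the lowest values of FPKM times transcript length mark 1 read, and in control they piled up near 15. On that scale the control value of Lox, over a transcript of 4741 bases, stood for about 60 reads and that of Loxl4 for about 40, while the other 8 genes had about 500 or more. On this rough scale the control values of Lox and Loxl4 were low but not made of single reads. That the pile marks 1 read is an assumption that could not be checked.

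Summed over the 5 lysyl oxidases, FPKM was 46.1 in Med1fl/fl against 159 in csMed1-/- heart (ratio 3.45). Loxl1 made up 63.5% of the control sum and 69.9% of the csMed1-/- sum. The share of Loxl2 was 31.3% in control and 18.8% in csMed1-/- heart. Loxl3 made up 4.21% and 6.56%, Lox 0.424% and 4.37%, and Loxl4 0.516% and 0.341%. Of the difference between the sums, 72.6% came from Loxl1 and 5.98% from Lox, so the gene with the largest ratio added little to the total.

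**Figure D2:**
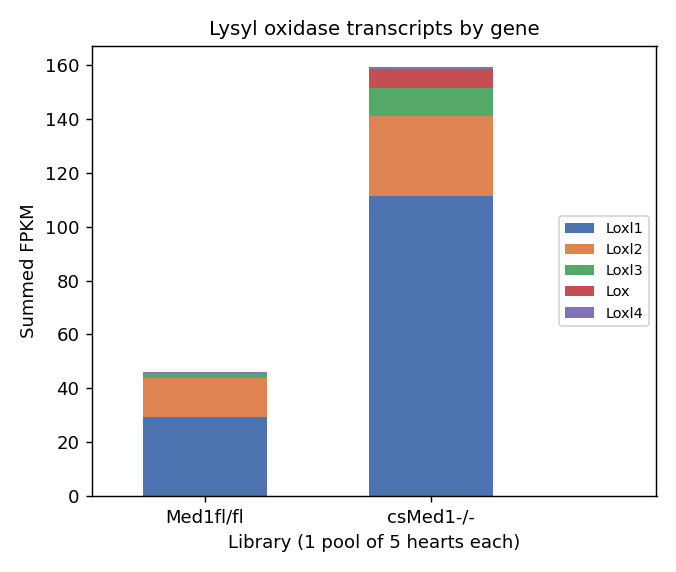
Summed FPKM of the 5 lysyl oxidases in each library (1 pool of 5 hearts each), stacked by gene. The bars reach 46.1 FPKM in Med1fl/fl and 159 FPKM in csMed1-/- heart, and Loxl1 is the largest part of both.

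Over all 10 genes the summed FPKM was 204.6 in Med1fl/fl against 2029 in csMed1-/- heart (ratio 9.92). Eln made up 23.6% of it in control and 45.5% in csMed1-/- heart, and Mfap4 26.4% and 33.1%. Without these 2 genes the sums were 102.3 and 436 FPKM (ratio 4.26).

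Other genes of elastic fibres were a mixed group. Of 24 listed partners, 20 were kept by the filter, of which 11 were higher and 2 lower past 2-fold, with a median log2 ratio of 1.24 beside -0.07 for all 10489 genes, of which 13.6% were higher and 18% lower past 2-fold. At 1 FPKM or more in both libraries the counts were 8 higher and 2 lower of 17, against 11.3% and 14.7% of the 9160 genes. The median log2 ratio of these 17 was 0.95, inside 2-fold, beside -0.05 for the 9160 genes. The highest ratio was that of Ltbp2, a latent TGF-β binding protein of microfibrils, at 0.591 and 29.6 FPKM (log2 ratio 5.65), kept through the csMed1-/- library alone. Adamtsl2, whose product binds fibrillin-1, had 15.2 and 233 FPKM (3.94). Bgn, the matrix proteoglycan biglycan and the gene of the list with the highest mean FPKM, had 194 and 1246 FPKM (2.68). Among the genes kept, the lowest ratios were those of Emilin2, an elastic fibre glycoprotein, at 65.9 and 23.6 FPKM (-1.48), and of Mmrn2, an endothelial member of the same family, at 27.8 and 11.2 FPKM (-1.32). Efemp1, the gene of fibulin-3, fell just short of the filter at 0.978 and 0.0474 FPKM, a lower ratio still (log2 ratio -4.37), and is named after its values were seen. Relatives of members were chosen after their values were seen. Fbn2, the gene of fibrillin-2, had 0.201 and 1.59 FPKM (2.99) and was kept through the csMed1-/- library alone, so it had to be higher. Mfap2, the gene of MAGP-1, had 12.0 and 57.0 FPKM (2.25). The fibulin genes Fbln1 and Fbln2 went in opposite directions, at 127 and 82.5 FPKM (-0.63) and at 48.1 and 250 FPKM (2.38).

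Lox and Loxl1 are secreted as inactive forms that bone morphogenetic protein 1 and related proteases cleave, and all lysyl oxidases need copper. Of 14 listed genes of this processing, of docking in the matrix and of copper supply, 11 were kept, all at 1 FPKM or more in both libraries. Of these, 6 were higher and 3 lower past 2-fold (median log2 ratio 1.23), where 11.3% of the 9160 genes were higher and 14.7% lower. Postn, the gene of periostin, a matrix scaffold for bone morphogenetic protein 1, had 1.57 and 27.4 FPKM (log2 ratio 4.13). Fmod, the collagen-binding proteoglycan fibromodulin, had 2.95 and 27.6 FPKM (3.22). Steap3, a metal reductase, had 33.6 and 5.82 FPKM (-2.53). Tnxb, the gene of tenascin-X, was listed with the highest mean FPKM of the list, at 4862 and 2098 FPKM (-1.21). Its control value was above that of Tnnt2, a cardiomyocyte marker, at 2280 FPKM. Whether the level of Tnxb is a sound estimate was not tested.

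Fibrillar collagens are the other substrate of these enzymes. Of 10 such genes 6 were kept, of which 4 were higher and 0 lower past 2-fold (median log2 ratio 1.42), read against the same 11.3% and 14.7% since all 6 reached 1 FPKM in both libraries. Col5a2 had 8.01 and 37.0 FPKM (log2 ratio 2.21), and Col1a1, which had the highest mean FPKM of the 6, had 129 and 502 FPKM (1.95). Col3a1 had 139 and 219.96 FPKM (0.66) and Col5a3 had 8.60 and 8.27 FPKM (-0.06). The log2 ratio of Eln, 4.25, was above that of each of the 6 collagens, and no test of that difference could be made.

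Of 15 genes whose products hydroxylate and fold collagen inside the cell 14 were kept, with 3 higher, 0 lower and 11 within 2-fold (median log2 ratio 0.67). Among all 10489 genes 13.6% were higher, 18% lower and 68.5% within 2-fold. At 1 FPKM or more in both libraries the list had 2 higher and 0 lower of 13 (median log2 ratio 0.57). Leprel1 and Lepre1, collagen prolyl 3-hydroxylases, had the highest log2 ratios, 1.23 and 1.08, and Leprel1, at 0.936 FPKM in control, was kept through the csMed1-/- library alone. P4ha1, a prolyl 4-hydroxylase subunit, had -0.11, and Serpinh1, the collagen chaperone with the highest mean FPKM of the list, had 358 and 297 FPKM (-0.27).

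Among 14 proteases that can degrade elastin and protease inhibitors, 10 were kept, each at 1 FPKM or more in both libraries, with 3 higher and 0 lower past 2-fold (median log2 ratio 0.86) beside 11.3% and 14.7% of the 9160 genes. The 3 were inhibitors of metalloproteinases. Timp1 had 4.65 and 40.3 FPKM (log2 ratio 3.11), Timp2 had 80.9 and 358 FPKM (2.14), and Timp4, named after its value was seen, had 30.2 and 65.4 FPKM (1.12). Ctss, the gene of the elastin-degrading protease cathepsin S, had 3.94 and 4.17 FPKM (0.08), Timp3 had 18.0 and 21.4 FPKM (0.25), and Cst3, the abundant cathepsin inhibitor cystatin C, had 2140.2 and 2826 FPKM (0.40).

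**Figure D3:**
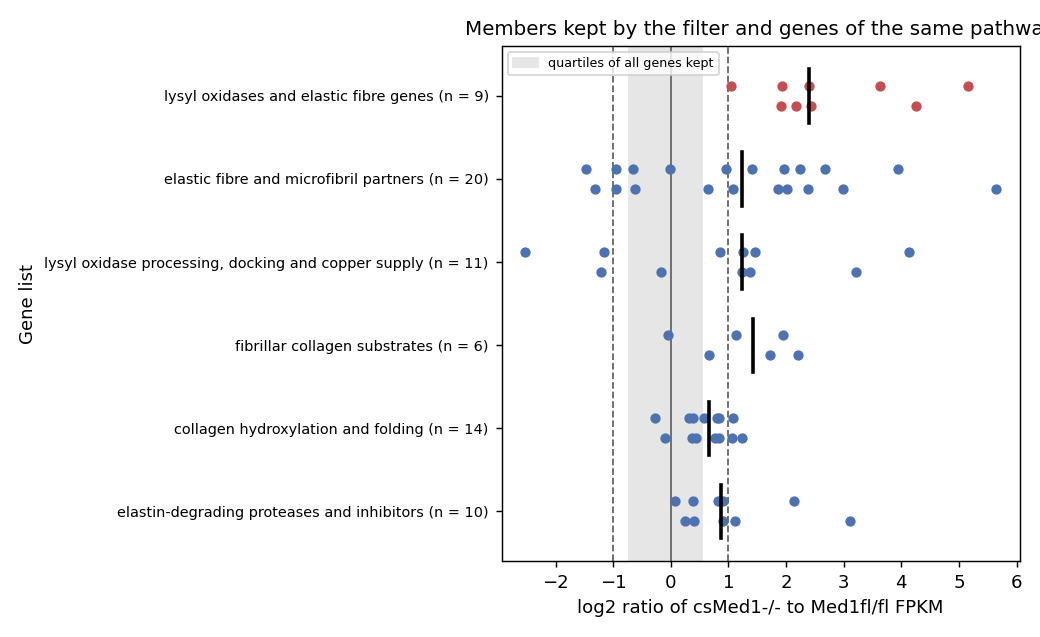
Log2 ratio of csMed1-/- to Med1fl/fl FPKM for the 9 lysyl oxidase and elastic fibre genes kept by the filter (red) and for genes of 5 related lists (blue), 1 point per gene, with black bars at list medians, dashed lines at 2-fold and a grey band over the quartiles of all 10489 genes. The red points lie between 1.05 and 5.15, while each other list has points within 2-fold.

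Marker lists of the cells that could carry these transcripts differed among themselves. Their counts are small and stand beside 13.6% higher and 18% lower past 2-fold over all 10489 genes. Of 8 general cardiac fibroblast markers 7 were kept, 2 higher and 2 lower past 2-fold (median log2 ratio -0.24), from Dpt, the matrix protein dermatopontin, at 41.3 and 13.1 FPKM (-1.66) to Mgp, matrix Gla protein, at 811 and 2690.2 FPKM (1.73). The list summed to 2528 FPKM in Med1fl/fl against 4108 in csMed1-/- heart, and Mgp alone turned that direction, since without it the sums were 1717 and 1418 FPKM. Pdgfra, a receptor of these cells, had 4.09 and 4.03 FPKM (-0.02), and Tcf21 had 10.9 and 25.6 FPKM (1.23). Both were named after their values were seen. Of 5 genes of activated fibroblasts 4 were kept and all 4 were higher past 2-fold (median 4.29). Of these, Cthrc1 at 0.258 and 5.62 FPKM and Tnc at 0.528 and 2.09 FPKM, named after their values were seen, were kept through the csMed1-/- library alone and so had to be higher. At 1 FPKM or more in both libraries 2 genes were left, Postn and Cilp, both higher, and the whole list summed to 4.59 and 87.7 FPKM. The highest ratio of this list was that of Cilp, a cartilage-type matrix protein, at 1.96 and 52.6 FPKM (4.75), its Postn is also counted among the docking genes above, and Fap, under 1 FPKM in both libraries, had 0.278 and 0.0671 FPKM.

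Of 7 vascular smooth muscle markers 6 were kept, 2 higher and 3 lower past 2-fold (median log2 ratio -0.96), and the list summed to 733 and 1070.3 FPKM, or to 729 and 448 FPKM without Cnn1, the gene that turned the direction of the sum. The ends of the range were Cnn1, calponin 1, at 4.32 and 622 FPKM (7.17) and Smtn, smoothelin, at 119 and 41.1 FPKM (-1.53). Myh11, the smooth muscle myosin, had 3.68 and 1.79 FPKM (-1.04), and Tagln had 23.8 and 89.7 FPKM (1.91). Both were named after their values were seen. Pericyte markers had 1 of 6 higher and 1 lower (median -0.13, sums 184 and 155 FPKM). Endothelial markers had 0 of 7 higher and 3 lower (median -0.67, sums 507 and 403 FPKM). Macrophage markers had 1 of 7 higher and 0 lower (median 0.55, sums 218 and 315 FPKM).
Of 6 epicardial markers 3 were kept (median 0.78, sums 4.38 and 9.91 FPKM). The 1 higher past 2-fold, Krt19, was kept through the csMed1-/- library alone at 0.313 and 2.93 FPKM, and with 1 FPKM or more in both libraries 0 of 2 were higher. Upk1b was listed at 0 in control. Cardiomyocyte markers had 1 of 6 kept genes higher and 3 lower (median -0.89), and Actc1, cardiac α-actin, was listed at 0 in control beside 9189 FPKM in csMed1-/- heart, which left it out of the ratios. Whether that 0 is a failed estimate was not tested, and it also counts in the control total of all genes. The ends of the range were Nppa, atrial natriuretic peptide, at 468 and 11114 FPKM (4.57) and Tnni3 at 10283 and 1537 FPKM (-2.74). Myl2, the ventricular myosin light chain, was at 20467 and 6571 FPKM, the highest of these markers in the control library. With Actc1 included the list summed to 50840 and 39808 FPKM, or to 50371 and 28694 FPKM without Nppa. Myh6, also listed, is not among the symbols. The part of any of these cell types in the values of the 10 genes was not tested.

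**Figure D4:**
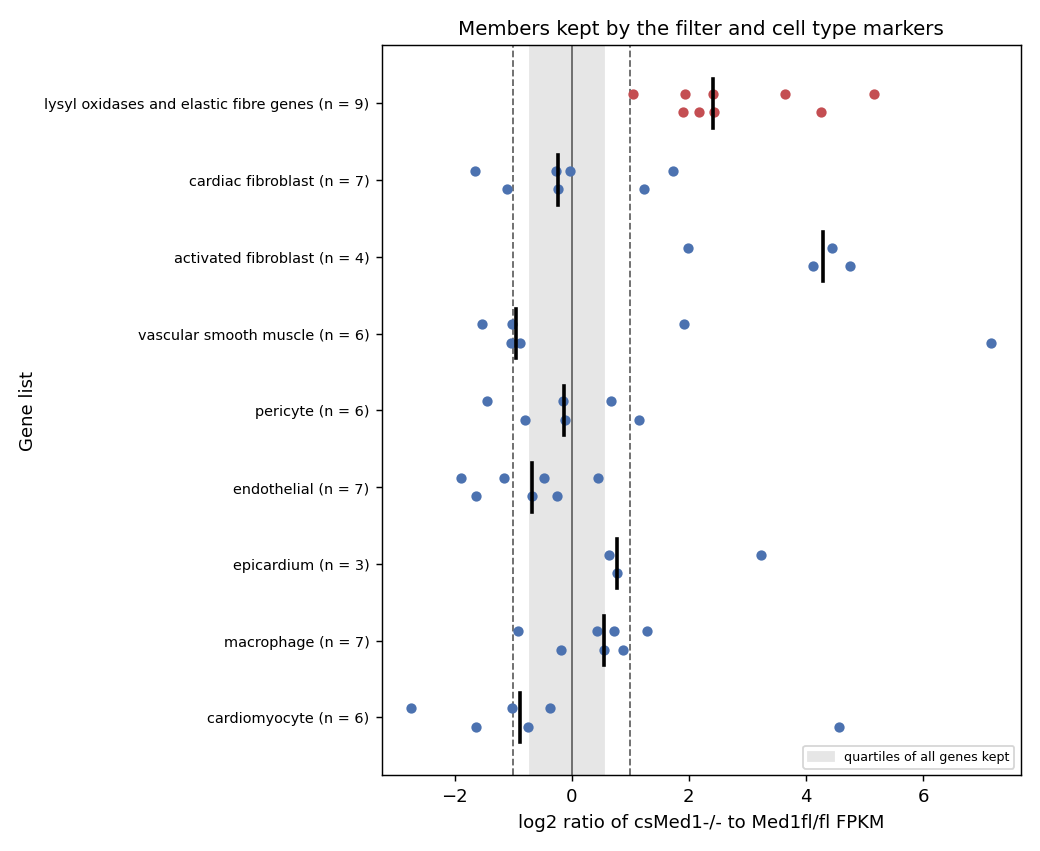
Log2 ratio of csMed1-/- to Med1fl/fl FPKM for the 9 lysyl oxidase and elastic fibre genes kept by the filter (red) and for markers of 8 cell types (blue), 1 point per gene, with black bars at list medians, dashed lines at 2-fold and a grey band over the quartiles of all 10489 genes. The 7 general cardiac fibroblast markers spread to both sides of 0 (median -0.24), while 2 of the 4 activated fibroblast points are genes kept through the csMed1-/- library alone.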

How the data were processed

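Directional poly(A) libraries, each from the pooled RNA of 5 hearts, were sequenced single-end at 50 bases. The deposited FPKM values were made by the authors, who mapped to mm10 using TopHat v2.0.8b and quantified known genes using Cufflinks v2.1.1 with cuffdiff. The scaling between libraries and the handling of reads with several matches are not given in the sources used here. The submitters' processing notes also name STAR 2.4.0h and DESeq2, with no role.

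Rows sharing a symbol were summed, and a gene was kept when detected in both libraries and reaching 1 FPKM in one of them or both. Ratios were taken without a pseudocount, and 2-fold was used as threshold. With 1 library per genotype no test was made. Positions, transcripts and 50-base stretches came from GENCODE M21, using for each gene the transcript paired with a curated RefSeq entry that had the longest coding sequence. Members and lists were chosen with earlier results of these data known. Named genes are the members, Med1 and the 3 genes nearest to the member with the largest ratio. Of each pathway list they are the 2 highest and 2 lowest ratios and the gene with the highest mean FPKM. The ends of the range are named for some marker lists, and any further gene of a list was named after its values were seen. Alternatives were pseudocounts, filters, scalings, thresholds and the choice of row. Computation used Python 3.11.15, pandas 2.3.3, numpy 2.4.6, Biopython 1.88 and matplotlib 3.10.9, and was tested on simulated data. Absolute read depth is unknown, which leaves the precision of single values open to a rough guess only.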

Additional observations from a re-analysis of the deposited data

How the results depend on the processing

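Each gene had a higher value in csMed1-/- heart under all 6 alternatives applied to its ratio (2 pseudocounts, 3 scalings and the choice of row). Only the 3 scalings could have changed that direction. A pseudocount changes the size of a ratio alone, and each gene stood on 1 row. The log2 ratio of Lox ran from 2.74 to 5.23 and that of Eln from 4.22 to 4.32, and both pseudocounts took Loxl4 inside 2-fold and a pseudocount of 1 also took Loxl2 there. The count and median of the members stayed within 1.5 times under every alternative tried. No scaling moved the median of all genes by over 0.071 on the log2 scale. Counts of related genes moved as follows. With 1 FPKM added, 1 collagen-modifying gene was higher. Without a filter, 4 elastic fibre partners and 2 collagens were lower. At 1.5-fold, 6 partners were lower, and 7 collagen-modifying genes and 6 proteases or inhibitors were higher. At 4-fold, 7 partners were higher and 0 lower, 2 processing genes were higher and 1 lower, and 1 collagen and 0 collagen-modifying genes were higher. A different threshold or filter makes these counts by construction. No paired analysis was possible because each genotype has 1 library, and for the same reason no library could be left out. The main limit is the missing replicate: the variation between hearts or pools behind any ratio is unknown.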
